A study of Mus musculus with 4 samples.

Results

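The genes described here are the 9 HoxA genes Hoxa2, Hoxa3, Hoxa4, Hoxa5, Hoxa6, Hoxa7, Hoxa9, Hoxa10 and Hoxa11, chosen by symbol from the 24421 genes counted and given in their order along the cluster. They are a part of the cluster, and other HoxA genes are not described. Genes at the 3′ or 5′ end below are those nearest that end among the 9. These 9 genes lie on the minus strand of mouse chromosome 6, between 52162417 and 52245810 of GRCm38, the assembly that mm10 stands for. RNA of the mouse embryonic stem cell line R1 was sequenced with the Illumina TruSeq kit in a state before (Undiff) and a state after (Day4) differentiation with retinoic acid (RA), with 2 libraries of each. For Undiff, the methods describe stem cells kept with leukaemia inhibitory factor (LIF), while the labels describe embryoid bodies, which are floating aggregates of differentiating stem cells. Day4 stands for embryoid bodies grown for 4 days without LIF and for 4 further days with RA, at a dose of 2 µM in the design text and of 2 mM in the treatment protocol of the labels. If Undiff was kept as the methods say, the states differ in LIF, in growth as aggregates and in time in culture as well as in RA. No embryoid bodies grown without RA for the same time were analysed here. Both states come from a single cell line, cultured and treated separately for each replicate according to the methods. The question addressed was how far each HoxA gene differed between the states.

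Hox genes encode homeodomain transcription factors that give cells their position along the head-to-tail axis of the embryo. They sit in clusters in which the genes at the 3′ end, such as Hoxa2, are switched on earlier and further towards the head than those at the 5′ end, such as Hoxa11, a property known as collinearity. In stem cells the clusters are held silent by Polycomb complexes, and RA, acting through nuclear receptors bound near the 3′ genes, is a classical inducer of Hox transcription.

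The promoter sequences of 3 genes are shown because these genes stand for the 3′ end, the highest level and the 5′ end of the set of 9 in the counts below. They are the 250 bases upstream of the RefSeq start in GRCm38.p6, on the minus strand, from chr6:52164832-52165081 for Hoxa2, chr6:52204588-52204837 for Hoxa5 and chr6:52245811-52246060 for Hoxa11. Capitals mark TAAT, the core that homeodomain proteins bind, or ATTA, the same core on the other strand.
Hoxa2: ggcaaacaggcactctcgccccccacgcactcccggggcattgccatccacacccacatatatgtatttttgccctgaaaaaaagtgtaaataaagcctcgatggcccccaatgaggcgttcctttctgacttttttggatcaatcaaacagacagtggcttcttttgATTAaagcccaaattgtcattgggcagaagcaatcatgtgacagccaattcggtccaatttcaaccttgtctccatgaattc
Hoxa5: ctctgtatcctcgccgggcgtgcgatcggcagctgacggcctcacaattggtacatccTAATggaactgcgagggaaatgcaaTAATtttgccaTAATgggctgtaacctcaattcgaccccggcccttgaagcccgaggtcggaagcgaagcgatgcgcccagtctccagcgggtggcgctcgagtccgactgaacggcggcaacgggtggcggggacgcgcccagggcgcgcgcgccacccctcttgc
Hoxa11: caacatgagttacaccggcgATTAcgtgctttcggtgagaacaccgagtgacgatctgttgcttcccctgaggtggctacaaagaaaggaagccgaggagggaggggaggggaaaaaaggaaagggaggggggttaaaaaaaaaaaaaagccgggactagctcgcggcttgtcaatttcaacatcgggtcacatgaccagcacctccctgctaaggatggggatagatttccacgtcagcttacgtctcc
The RefSeq table held a window for 8 of the 9 genes, with 2 windows for Hoxa10 and none for Hoxa4. The Hoxa3 window (52213068 to 52213317) lies between Hoxa6 and Hoxa7. The windows of Hoxa7 and Hoxa9 and 1 of those of Hoxa10 lie within the GENCODE spans of these genes. Not every window is thus upstream of the whole annotated gene. TAAT was found on either strand in 8 of the 9 windows, all but that of Hoxa7, and in 54.9% of the 32851 mouse promoter windows of this length. The receptor site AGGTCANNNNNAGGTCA, a direct repeat, was found in 0 of the 9 windows and in 0.00913% of all windows, and the single repeat AGGTCA in 0 of 9 against 14%. CCAAT was found in 4 of the 9 windows, against 33.8% of all windows, and TATAAA in 1, a window of Hoxa10, against 12.4%. The share of G and C was 46.4% upstream of Hoxa2, 63.6% upstream of Hoxa5 and 52.0% upstream of Hoxa11, with a median of 52.4% over all windows. The ratio of observed to expected CpG was 0.466, 1.11 and 0.792 in the same order, with a median of 0.373 over all windows. These matches describe letters in short windows only.

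Counts on genes ranged from 32099074 to 47730944 per library, at which depth 3 counts correspond to 0.0615 to 0.0959 CPM (counts scaled to a library of 1000000). Replicates of a state differed by more than counting error over all genes. The biological coefficient of variation of the fit was 3.66%. Markers of stem cells summed to 3768 to 3855 CPM in Undiff and to 17.8 to 21.1 CPM in Day4, and all 8 fell. In the same libraries, 7 of 8 fibroblast markers rose, with Thy1 lower, and their sum was 65.2 to 69.3 CPM in Undiff and 1714 to 1864 CPM in Day4. All 8 endoderm markers rose, from 31.6 to 34.1 CPM to 628.7 to 634.2 CPM in sum, with Afp at 0 counts in both Undiff libraries. The Day4 sum came mostly from Gata6 (282 and 269 CPM), Gata4 (255 and 259 CPM) and Dab2 (84.9 and 87.2 CPM). Sox17, Foxa2, Afp, Ttr and Apoa1 were each at 4.33 CPM or less in both Day4 libraries. Of the 8 lateral mesoderm markers 5 rose and Hand1 fell, with sums of 34.9 to 41.3 CPM and 222.6 to 222.7 CPM. Of the 8 neural markers 4 fell and 2, Dcx and Nes, rose, with sums of 149.8 to 151.5 CPM and 144.1 to 158.4 CPM, and the call of Sox1, one of those that fell, was lost in 7 of 14 other settings. Over all genes tested, 22.2% were called higher in Day4 and 20.6% lower. These markers moved with the same contrast as the HoxA genes, and their part in the results was not tested. In bulk RNA, fewer cells that express a gene and less RNA of that gene per cell cannot be told apart.

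All 9 HoxA genes were at or near zero in Undiff and rose in Day4. Differentially expressed genes (DEGs) were those with an adjusted p of 0.05 or less in edgeR, a log2 fold change of 1 or more in either direction, and a normalized count that averaged 5 or more. Over all 19891 genes with a count, 22.2% were DEGs higher in Day4 and 20.6% were DEGs lower in Day4, against 9 and 0 of the 9 HoxA genes. In 9 of 9 genes both Day4 libraries were above both Undiff libraries, as they were in 42.7% of all genes tested. The median log2 fold change of the 9 genes was 9.26, or 7.34 with Hoxa6 set at its lower bound, against -0.03 over all 19891 genes tested. None of the 9 genes was left out of the test, and the minimum mean was reached through the Day4 libraries for every one.

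Summed over the 9 genes, each Undiff library held 31 counts, and the Day4 libraries held 19204 and 26643. The genes thus made up 0.845 per 1000000 counts (95% Wilson interval 0.596 to 1.2) and 0.966 (0.680 to 1.37) of the Undiff libraries. In Day4 they made up 549 per 1000000 counts (542 to 557) and 558 (552 to 565). The summed normalized count was 34.7 ± 3.39 (SD, n = 2) in Undiff and 20258 ± 279 (SD, n = 2) in Day4, a fold of 587 with a 95% counting interval of 458 to 766. In an exact two-sided permutation test over the libraries the difference had p = 0.33, the smallest value that 2 against 2 libraries can give. Intervals here cover counting error only, and counting intervals of a fold are exact for the ratio of the pooled counts.

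**Figure D1:**
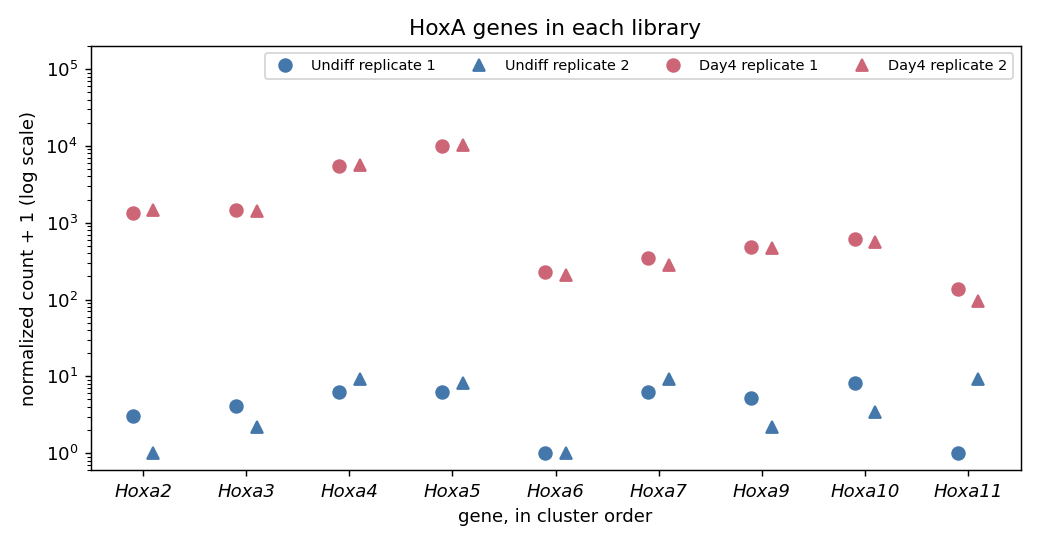
Normalized count plus 1 (log axis) of each HoxA gene, in cluster order, in the 4 libraries (points). The Day4 points lie above the Undiff points for all 9 genes, with the highest Day4 values for Hoxa5 and Hoxa4 and the lowest for Hoxa11.

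Of the genes at the 3′ end, Hoxa2, which patterns the hindbrain and branchial arches, had 2 and 0 counts in the Undiff libraries and 1272 and 1892 in the Day4 libraries. A few reads in Undiff were thus set against 1272 or more in Day4, where the replicates were close to each other. Its normalized count was 1.04 ± 1.47 (SD, n = 2) in Undiff and 1391 ± 87.6 (SD, n = 2) in Day4, a ratio of 1257 with a wide counting interval of 348 to 10383, since 2 counts stood behind the Undiff state. The log2 fold change was 10.14 (SE 0.24, adjusted p = 4.2e-14, edgeR).

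Hoxa3, needed for the thymus and parathyroid glands, had 3 and 1 counts in Undiff and 1395 and 1854 in Day4. The normalized count was 2.16 ± 1.36 in Undiff and 1440.3 ± 23.9 in Day4 (SD, 2 libraries each), 645-fold higher (252 to 2369.9), with a log2 fold change of 9.26 (SE 0.18, adjusted p = 2.8e-14, edgeR). Its Day4 replicates lay closest together of the 9 genes relative to their mean, apart from Hoxa4. Of its annotated exon bases, 13.3% are shared with the antisense genes Hoxaas2 and Hoxaas3, where reads cannot be assigned with certainty without the strand. For TruSeq the methods count exons without it. For genes they state that strandedness was considered, and they name a strand-specific run for the Direct RNA samples only.

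Hoxa4, which acts in the cervical vertebrae, had 5 and 7 counts in Undiff and 5241 and 7269 in Day4. The scaled Day4 values, 5475 and 5581, were nearly equal. Its mean normalized count was 6.79 ± 2.24 in Undiff and 5528 ± 75.0 in Day4 (SD, 2 libraries each), 828-fold higher (474 to 1603), with a log2 fold change of 9.67 (SE 0.12, adjusted p = 8.3e-16, edgeR).

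Hoxa5, known for its roles in the lung and in the vertebrae between neck and chest, had 5 and 6 counts in Undiff and 9572 and 13549 in Day4, the highest counts among the 9 genes in both Day4 libraries. Its mean normalized count was 6.19 ± 1.39 in Undiff and 10201 ± 285 in Day4 (SD, 2 libraries each), 1669.9-fold higher (933 to 3346). The log2 fold change was 10.67 (SE 0.11, adjusted p = 2.4e-16, edgeR). Hoxa5 alone held 49.8% and 50.9% of the fragments of the 9 genes in the Day4 libraries, and Hoxa2 to Hoxa5 together held 91.0% (95% Wilson interval 90.6 to 91.4) and 92.2% (91.9 to 92.5).

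Hoxa6, a gene of the thoracic region, was at 0 counts in both Undiff libraries and at 215 and 267 in Day4. With Undiff set to the floor of 3 counts over the state, it was at least 128-fold higher in Day4, and no upper limit can be given. Its counting interval, which does not use the floor, began lower, at 103. The normalized count in Day4 was 215 ± 13.9 (SD, n = 2), and the adjusted p was 9.7e-10 (edgeR).

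Hoxa7, which acts in the trunk skeleton, had 5 and 7 counts in Undiff and 334 and 363 in Day4. The Undiff counts equalled those of Hoxa4 while the Day4 counts were far lower. Its normalized count averaged 6.79 ± 2.24 before and 314 ± 49.6 after differentiation (SD, n = 2 for each state), 46.1-fold higher (26.2 to 89.7), with a log2 fold change of 5.51 (SE 0.28, adjusted p = 4.6e-10, edgeR). Hoxa7 shares 20.4% of its annotated exon bases with the antisense gene Hoxaas3, and the RefSeq position of the noncoding RNA Mira lies within an annotated exon of Hoxa7.

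Of the genes at the 5′ end, Hoxa9, a regulator of blood stem cells, had 4 and 1 counts in Undiff and 463 and 602 in Day4. Its normalized count was 2.68 ± 2.10 in Undiff and 473 ± 15.2 in Day4 (SD, 2 libraries each), 169-fold higher (72.3 to 522), with a log2 fold change of 7.34 (SE 0.25, adjusted p = 6.3e-12, edgeR). The miRNA gene Mir196b lies within 1.52% of its annotated exon bases.

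Hoxa10, needed in the uterus and the lumbar skeleton, had 7 and 2 counts in Undiff and 581 and 722 in Day4. The normalized count was 4.84 ± 3.47 in Undiff and 581 ± 37.2 in Day4 (SD, 2 libraries each), 115-fold higher (60.4 to 252). The log2 fold change was 6.82 (SE 0.22, adjusted p = 6.3e-12, edgeR). Its Day4 counts exceeded those of its neighbours Hoxa9 and Hoxa11 in both libraries, which is not a comparison per length, and with the coding length Hoxa9 stood above Hoxa10.

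Hoxa11, which shapes the forearm and lower leg and acts in the uterus and kidney, had 0 and 7 counts in Undiff and 131 and 125 in Day4. It was the lowest of the 9 genes in Day4, and all of its Undiff counts came from replicate 2. The normalized count was 4.19 ± 5.92 in Undiff and 116 ± 28.9 in Day4 (SD, 2 libraries each), 29.1-fold higher (13.9 to 73.0), with a log2 fold change of 4.82 (SE 0.49, adjusted p = 8.2e-07, edgeR). The antisense gene Hoxa11os covers 35.0% of its annotated exon bases.

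Because so few counts stood behind Undiff, the sizes of the folds depended on which Undiff library was used, while the direction and the call did not. The log2 fold change of Hoxa11 was 3.74 without Undiff replicate 1 and 9.93 without Undiff replicate 2, where 0 counts remained. For Hoxa2 it was 13.49 without Undiff replicate 1, where 0 counts remained, and 9.31 without Undiff replicate 2. Without Undiff replicate 1, it was 10.09 for Hoxa3, 8.48 for Hoxa9 and 7.84 for Hoxa10. Values against 0 counts depend on the prior count of the fit and are no bounds.

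Along the cluster, the log2 fold changes of Hoxa2, Hoxa3, Hoxa4 and Hoxa5 lay between 9.26 and 10.67, and those of Hoxa7, Hoxa9, Hoxa10 and Hoxa11 between 4.82 and 7.34. Hoxa6, which lies between them, had 0 Undiff counts and was at least 128-fold higher with the floor, without an upper limit. The counting interval of Hoxa7 (26.2 to 89.7) and that of Hoxa11 (13.9 to 73.0) lay wholly below those of the 4 genes at the 3′ end, whose lowest bound was 252. For Hoxa11 this rests on Undiff replicate 2, which held all 7 of its Undiff counts. Against Undiff replicate 1 alone, with 0 counts, it has no upper limit. The counting interval of Hoxa9, which reached up to 522, overlapped those of Hoxa2, Hoxa3 and Hoxa4. That of Hoxa10, up to 252.1, just overlapped that of Hoxa3, from 251.8. These are intervals of counting error, and the genes were not tested against each other.

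To compare the genes with each other, the Day4 levels were divided by gene length, as CPM per kilobase of annotated exon in GENCODE vM21. On this scale Hoxa5 stood at 145.2 ± 4.06 and Hoxa4 at 92.6 ± 1.26 (SD, n = 2), the highest and the next highest means of the 37 Hox genes examined. The libraries of Hoxa4 (91.7 and 93.5) overlapped those of Hoxc5 (89.6 and 93.2). Hoxc5 also changes the order with other lengths (96.6 with the longest transcript, above Hoxa4, and 424.0 with the coding length, above both). Among the 9 HoxA genes, Hoxa2 followed at 20.9 ± 1.32, rank 8 of the 37. The others lay lower, with Hoxa6 at 6.57 ± 0.42, Hoxa3 at 6.40 ± 0.11, Hoxa10 at 4.74 ± 0.30, Hoxa7 at 2.91 ± 0.46 and Hoxa9 at 2.26 ± 0.07. Hoxa11 was lowest among the 9 at 1.36 ± 0.34 and ranked 31 of the 37. The highest level per length was thus 107 times the lowest. Hoxa6 and Hoxa3 were the neighbours in the order of the 9 whose libraries overlapped (6.86 and 6.27 against 6.47 and 6.32). All other neighbours among the 9 were apart in both libraries. In Undiff the highest level of the 9 HoxA genes in a library was 0.1404 CPM per kilobase, for Hoxa4 in replicate 2. Exon bases that Hoxa3, Hoxa7 and Hoxa11 share with antisense genes, and those of Mira in Hoxa7, count in the exon length. Fragments on them may not have been counted for the HoxA gene, so the levels of Hoxa3, Hoxa7 and Hoxa11 may be too low. The levels and their order depend on the length used. Hoxa3 has 6014 annotated exon bases against 2591 in its longest transcript, and Hoxa9 has 5580 against 3226. With the 2 other lengths, 13 of 18 levels moved by more than the SD of the Day4 libraries. With the longest transcript Hoxa3 stood above Hoxa6. With the coding length the order was Hoxa5, Hoxa4, Hoxa2, Hoxa3, Hoxa9, Hoxa10, Hoxa7, Hoxa6, Hoxa11. Hoxa5, Hoxa4 and Hoxa2 led and Hoxa11 was last by each of the 3 lengths.

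**Figure D2:**
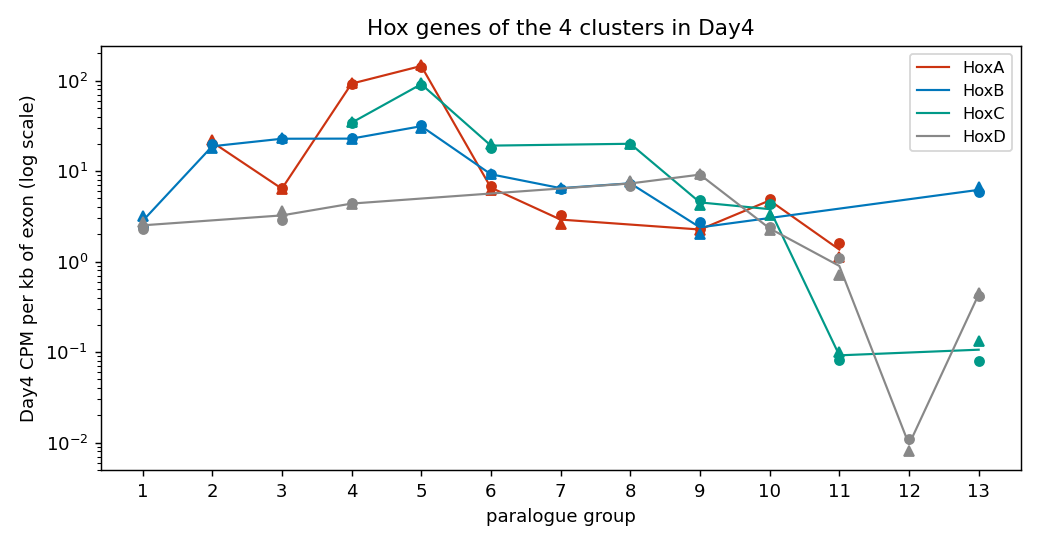
Day4 level in CPM per kilobase of exon (log axis) against paralogue group for the HoxA, HoxB, HoxC and HoxD genes examined, with means and both libraries. Hoxc12, at 0 counts in Day4, is not drawn. Hoxa5 and Hoxa4 have the 2 highest means, the libraries of Hoxa4 overlap those of Hoxc5, and the HoxA levels fall to 1.36 at Hoxa11.

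The same Day4 scale was used to set the 3 leading genes beside their paralogues, the genes at the same place in the other clusters. Hoxa5 stood at 145.2 ± 4.06, with Hoxc5 at 91.4 ± 2.56 and Hoxb5 at 31.4 ± 1.46 CPM per kilobase of exon (SD, n = 2). With the coding length Hoxc5 stood above Hoxa5, at 424.0 against 336.4 CPM per kilobase, so that their order is not settled. For Hoxa4, the level of 92.6 ± 1.26 was above 34.2 ± 0.73 for Hoxc4, 22.9 ± 0.27 for Hoxb4 and 4.38 ± 0.02 for Hoxd4, and it remained highest of the 4 with the coding length (172.7 against 111.0, 78.3 and 17.2). Hoxa2, with libraries at 20 and 21.9, stood little above Hoxb2, with libraries at 19.9 and 17.8, and with the coding length it stood below, at 33.3 against 61.9 CPM per kilobase.

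The Day4 replicates were also compared gene by gene, as the ratio of the normalized count of replicate 2 to that of replicate 1. The ratio was 1.093 for Hoxa2 (95% counting interval 1.018 to 1.175) and 1.04 for Hoxa5 (1.013 to 1.068), within the middle 90% of ratios (0.883 to 1.116) of the 11652 genes with 200 to 30000 Day4 counts. It was 0.977 (0.911 to 1.048) for Hoxa3 and 1.019 (0.984 to 1.056) for Hoxa4. The genes from Hoxa6 onwards all had ratios below 1. For Hoxa6, Hoxa9 and Hoxa10, at 0.913 (0.760 to 1.097), 0.956 (0.845 to 1.081) and 0.913 (0.818 to 1.021), the interval held 1. For Hoxa7, at 0.799 (0.687 to 0.930), and Hoxa11, at 0.701 (0.545 to 0.903), it did not. Among the 4282 genes with 200 to 2000 Day4 counts, the middle 90% of ratios ran from 0.835 to 1.185, with a median of 0.992. Of these genes 2.55% had a ratio at or below that of Hoxa7, and 0.537% one at or below that of Hoxa11. With 2 libraries, these ratios have no further replicate check.

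**Figure D3:**
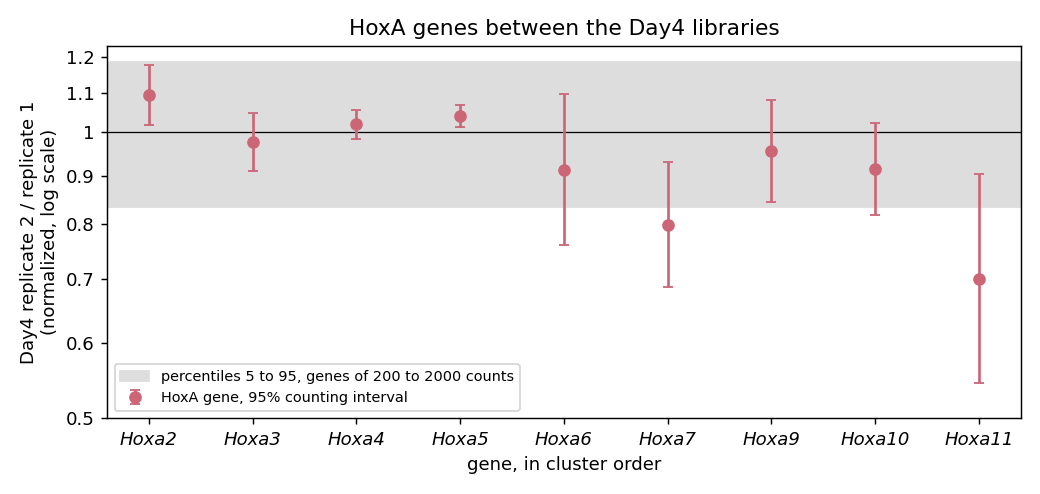
Ratio of the normalized count in Day4 replicate 2 to that in Day4 replicate 1 for each HoxA gene in cluster order, with 95% counting intervals (bars). Hoxa2 and Hoxa5 lie above 1 and Hoxa7 and Hoxa11 below it with intervals that leave out 1, the lowest being Hoxa11 at 0.701.

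The cluster and its surroundings also give noncoding RNAs, several of them antisense to the HoxA genes and known to be transcribed with them. Of the 8 examined, 5 were DEGs higher in Day4, 1 was lower and 2 were not DEGs, beside 22.2% of all genes higher and 20.6% lower. Hotairm1, a myeloid RNA antisense to the 3′ end (52156902 to 52162119), had 11 and 4 counts in Undiff and 520 and 636 in Day4, 61.2-fold higher (37.0 to 109.8), with a log2 fold change of 5.92 (SE 0.22, adjusted p = 1.7e-11, edgeR). Hoxaas2, between Hoxa2 and Hoxa3, had 1 and 0 counts against 399 and 520 (log2 fold change 9.23, SE 0.33). Hoxaas3 rose from 0 and 0 counts to 85 and 109, at least 51.4-fold with the floor (counting interval from 41.4). Mira, an RNA known to act on Hoxa6 and Hoxa7, had 15 and 11 counts in Undiff and 538 and 705 in Day4 (log2 fold change 5.24, SE 0.17), and its RefSeq position (52214491 to 52215288) lies within a GENCODE exon of Hoxa7. Hoxa11os, antisense to Hoxa11, had 3 and 0 counts against 73 and 66 (log2 fold change 5.11, SE 0.60). Each of these 5 thus rose with the coding genes that it overlaps or adjoins, and for Hoxaas2, Hoxaas3 and Hoxa11os, which share exon bases with a HoxA gene on the opposite strand, and for Mira, counts cannot be fully told apart. Hottip, at the 5′ end, had 0 and 0 counts in Undiff and 2 and 2 in Day4, and Mir196b had 0 and 0 against 1 and 4, with adjusted p = 0.071 and 0.057 (edgeR).

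Halr1 was the noncoding RNA that fell. It lies outside the 3′ end of the cluster (52102949 to 52113684, plus strand). Its counts were 335 and 410 in Undiff and 8 and 4 in Day4, which is 0.0128 of the Undiff level (0.00658 to 0.0225), with a log2 fold change of -6.26 (SE 0.32, adjusted p = 5.4e-10, edgeR). In Undiff, it alone had over 10 times the 31 counts of the 9 HoxA genes together.

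The coding genes outside the cluster did not share the large folds of the HoxA genes. Beyond the 3′ end, the adaptor gene Skap2 had a log2 fold change of 1.01 (SE 0.05, adjusted p = 5.7e-10, edgeR), at the edge of the DEG threshold and below it in 7 of 14 other settings of the analysis. The sorting nexin Snx10 fell by 2.20 (SE 0.06), and the chromatin protein gene Cbx3 had a log2 fold change of -0.29 and was not a DEG. Beyond the 5′ end, Evx1, a homeobox gene linked to the cluster, had 8 and 7 counts in Undiff and 51 and 83 in Day4, 7.10-fold higher (4.15 to 13.0). Jazf1 had 23 and 22 counts against 73 and 98, 3.02-fold higher (2.16 to 4.29). Hibadh and Tax1bp1 had log2 fold changes of -0.57 and -0.24 and were not DEGs. In all, 3 of 7 flanking genes were DEGs higher in Day4 and 1 was lower, beside 22.2% and 20.6% of all genes. The median log2 fold change of the 7 was -0.24.

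**Figure D4:**
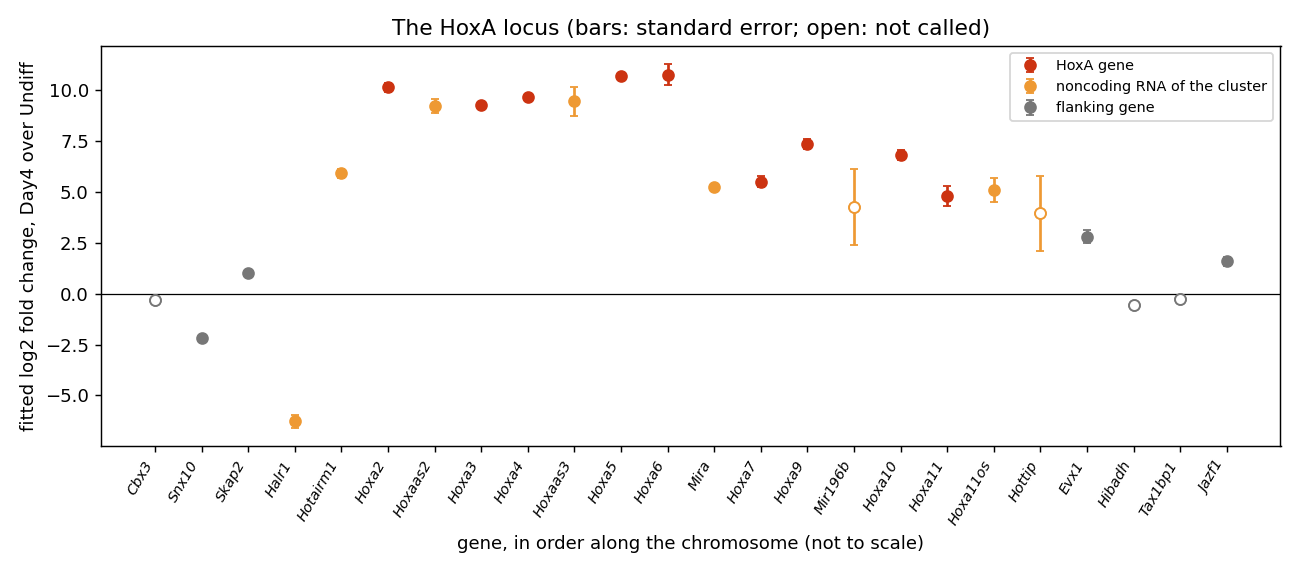
Log2 fold change of Day4 over Undiff, from edgeR, for flanking genes, noncoding RNAs and HoxA genes in their order along the locus, with bars of 1 SE. The 9 HoxA genes lie between 4.82 and 10.76, Halr1 lies at -6.26, and the flanking genes lie between -2.20 and 2.81; values of Hoxa6, Hoxaas3, Hottip and Mir196b, with 0 Undiff counts, depend on the prior count.

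The other Hox clusters, on other chromosomes, are given for comparison, beside 22.2% of all genes higher in Day4 and 20.6% lower. All 10 HoxB genes examined were DEGs higher in Day4 (median log2 fold change 7.88), from 10.83 for Hoxb5 to 2.99 for Hoxb9. Of the 9 HoxC genes, 6 rose, led by Hoxc5 at 11.01, and 1 fell, Hoxc13, at -1.50 (29 and 23 counts against 7 and 16). Of the 9 HoxD genes 7 rose, led by Hoxd3, which was at 0 counts in Undiff and at 433 and 736 in Day4. With the floor Hoxd3 was at least 310-fold higher (counting interval from 251). The lowest called HoxD gene was Hoxd1 at 3.78. Summed levels in Day4 were 535.9 to 546.4 CPM for the 9 HoxA genes, 484.4 to 499.3 CPM for HoxC, 377.8 to 387.2 CPM for HoxB and 77.7 to 82.1 CPM for HoxD. In Undiff each of the 4 sums was at most 2.17 CPM. Sums of CPM are not per length and cover different numbers of genes.

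Hox proteins bind DNA together with cofactors of the TALE homeodomain class, the Pbx, Meis and Pknox proteins. Of 9 such genes, 7 were DEGs higher in Day4, beside 22.2% of all genes. Over the 9, the summed levels were 114.6 to 115 CPM in Undiff and 1755 to 1766 CPM in Day4, with a median log2 fold change of 3.87. Meis2 had the largest log2 fold change, at 8.53 (SE 0.08, adjusted p = 1.9e-16, edgeR), from 33 and 37 counts to 14063 and 18497. Pbx4 went the other way, at -1.50 (SE 0.14). Unlike the HoxA genes, most cofactors thus already had a measurable level in Undiff.

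Cdx factors, which switch on trunk Hox genes in the posterior embryo, did not rise. Cdx1 fell from 24 and 18 counts to 3 and 10, a log2 fold change of -2.0 (SE 0.46, adjusted p = 0.0015, edgeR). Cdx2 had 42 and 34 counts against 21 and 37 and was not a DEG. Cdx4 had 11 and 5 counts against 0 and 0, below the minimum mean for a DEG, with adjusted p = 0.0011. The 3 genes summed to at most 2.14 CPM in any library.

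Among 14 receptors, binding proteins and response genes of RA, 9 rose and 2 fell, beside 22.2% and 20.6% of all genes. The median log2 fold change of the 14 was 2.45. Cyp26b1, which encodes an enzyme that breaks down RA, had the largest change, at 9.78 (SE 0.09, adjusted p = 1.3e-16, edgeR), from 19 and 15 counts to 15540 and 22361, of the same order as those of Hoxa2 to Hoxa5. The receptor genes Rxrg and Rarg fell, at -1.35 (SE 0.21) and -1.02 (SE 0.05), the latter at the edge of the threshold.

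Polycomb complexes keep Hox clusters silent, and MLL complexes maintain their active state. Of 16 Polycomb subunits, 8 fell and 5 rose, beside 20.6% and 22.2% of all genes. The summed level of the 16 was 2751 to 2923 CPM in Undiff and 1388 to 1396 CPM in Day4. The CBX subunits, which read the methylated histone mark, moved in opposite directions. Cbx7, the main form in stem cells, fell by 4.37 (SE 0.06, adjusted p = 2.5e-15, edgeR), from 7575 and 6571 counts to 389 and 470. Among those that rose, Cbx8 and Cbx2 rose by 4.21 (SE 0.20) and 2.06 (SE 0.05) on the log2 scale, as did Bmi1 by 3.51 and Ring1 by 1.81, both of Polycomb repressive complex 1. Of the 8 MLL complex subunits 0 rose and 2, Dpy30 at -1.69 and Ash2l at -1.18, fell, beside 22.2% and 20.6% of all genes. The other 6 were not DEGs. Men1 had a log2 fold change of 0.90 (adjusted p = 7.7e-10, edgeR), under the minimum fold. Wdr5, at -0.97, was just under it and was a DEG in 7 of the 14 other settings.

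The genes whose profile lay nearest to the mean profile of the 9 HoxA genes, by Euclidean distance of log2(CPM + 1) over the 4 libraries, were Tmem178, Pcdhb22 and Mndal, at distances of 0.195, 0.205 and 0.207. They had 3 to 9, 6 to 7 and 1 to 3 counts in Undiff and 887 and 1140, 822 and 1169, and 798 and 1023 in Day4. With 4 libraries in 2 states, this likeness says little beyond a low count in Undiff and a like level in Day4.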

How the data were processed

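Gene counts of 4 Illumina TruSeq libraries (2 Undiff, 2 Day4) were used as deposited. Reads were trimmed by the authors with cutadapt and aligned with STAR 2.4.2a (version per the labels) to mm10, and uniquely aligned fragments were counted per gene with htseq-count, so that the deposited values are whole-number counts without normalization. The labels name a stranded library kit besides TruSeq. Fragments assigned to no gene (7.50% to 13.3% of uniquely aligned fragments) or to more than 1 gene (1.84% to 1.91%) were left out of library totals and tests. Counts were scaled by TMM to the geometric mean effective library size and tested with the quasi-likelihood test of edgeR 4.0.16 (glmQLFit with legacy = FALSE, glmQLFTest) in R 4.3.3 on all 19891 genes with a count, with Benjamini-Hochberg adjustment and the thresholds that the study set. Standard errors are the log2 fold change divided by the square root of F. The floor, used where a state has 0 counts, is 3 counts over the state. The script was tested on simulated data. DESeq2, the tool of the authors, was run as an alternative (version 1.42.0). Positions, exon lengths and overlaps come from GENCODE vM21 and promoters from RefSeq, which differ from the annotation used for counting.

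The HoxA genes and all gene lists were chosen with earlier results of these data known. All 9 HoxA genes described, and the noncoding RNAs and flanking genes examined, are named (Evx1os was not analysed here). Of the other lists, the called genes with the highest and lowest log2 fold change and those against most of their list are named, with the paralogues of the 3 HoxA genes highest per length, the 3 nearest profiles and, outside this rule, Cdx2, Cdx4, Men1, Wdr5 and markers that go against their list. A gene that this rule would name is not reported here. The ONT data were not analysed here.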

Additional observations from a re-analysis of the deposited data

How the results depend on the processing

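All 9 HoxA genes were DEGs higher in Day4 under each of 14 alternative settings, and their 108 log2 fold changes under 12 of these kept direction and call, between 3.10 and 13.49, with a largest adjusted p of 0.023, for Hoxa11 in DESeq2. These settings were 2 runs of DESeq2, DESeq2 size factors or library totals in edgeR, filterByExpr, a replicate block, thinning, the older dispersion of edgeR (added after the data were seen) and leaving out each library. Without a minimum fold change or without a minimum mean the 9 calls also stood. The size of the adjusted p depended strongly on the setting. After thinning it was 1.4e-05 for Hoxa5 and 7e-04 for Hoxa6 (edgeR), against 2.4e-16 and 9.7e-10 in the main fit. With the replicate block the log2 fold change of Hoxa11 was 4.86, and 4414 and 4101 genes were DEGs higher and lower; no call of a HoxA gene changed. The states share replicate numbers, but deviations of same-numbered libraries correlated at -0.02 over 14643 genes, and the numbers were not taken to pair the libraries. The log2 fold of the summed count ran from 9.07 to 9.29. With no minimum fold change, 7305 genes were higher and 7004 lower, against 4420 and 4101. Of 280 counts of the 10 other lists without the markers, 271 stayed within 1.5 times. The exceptions were RA genes lower (1 with library totals and without Undiff replicate 2), Cdx factors lower (2 without a minimum fold change, without a minimum mean, and without either Day4 replicate) and, without a minimum fold change, flanking genes lower (4) and MLL subunits higher (1) and lower (7). Of the called marker genes, Sox1 lost its call in 7 of 14 settings and the others lost it in 0. The low counts of Undiff limit the size of each HoxA fold, and the 2 libraries of a state limit the spread.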
